A study of Mus musculus with 15 samples.

Results

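The genes described here encode proteins of the synaptic vesicle cycle and of regulated exocytosis, chosen by name alone. A symbol of the gene table belonged to the set if it named a synaptotagmin, synapsin, SV2 protein, synaptophysin, VAMP, syntaxin, SNAP, complexin, Rab3, syntaxin-binding protein, Unc13 or Rims protein and had a mean of at least 1 TPM (a level scaled to the library total and to transcript length) over the 15 libraries. Of 36144 symbols, 73 matched by name and 67 passed the minimum, and these 67 are called the members below. The 6 others were Syt15, Stx19, Syt10, Cplx3, Cplx4 and Syt8. Just inside the minimum stood Vamp5 (mean 1.25 TPM), Syt14 (1.19 TPM) and Unc13b (1.11 TPM), and just outside it Syt15 and Stx19 (both 0.64 TPM) and Syt10 (0.21 TPM). Vamp5 entered on its value in the gene table. Summed over its transcripts it was lower, with group means from 0.11 TPM (SMA+Pifithrin-alpha) to 1.29 TPM (SMA+MW150), and only the latter was above 1 TPM.

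The RNA came from motor neurons of spinal segments L1 to L3, labelled with the tracer cholera toxin subunit B and cut out by laser-capture microdissection at postnatal day 6. The SMNΔ7 mouse is a model of spinal muscular atrophy (SMA), a motor neuron disease caused by too little SMN protein; SMA mice were Smn-/-;SMN2;SMNΔ7, and WT mice were Smn+/+ littermates that carried the same SMN2 and SMNΔ7 transgenes, all on an FVB background. WT and SMA mice received vehicle. The other groups were SMA mice given MW150 (a p38 inhibitor, 5 mg/kg), Pifithrin-alpha (a p53 inhibitor, 2.2 mg/kg) or SMN-C3 (a modifier of SMN2 splicing, 3 mg/kg) by daily intraperitoneal injection from postnatal day 0. Each of the 5 groups had 3 libraries, described as biological replicates; how many mice went into a library is not given in the sources used here. The model has too little SMN in all tissues, so an effect of treatment or genotype on the neurons cannot be told apart from one that comes through other cells.

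Transmitter release works through a short list of protein families. A vesicle carries a VAMP (synaptobrevin), which zips together with a syntaxin and SNAP-25 of the plasma membrane into the SNARE complex that fuses the membranes. Syntaxin-binding proteins and the Unc13 proteins prepare this assembly, Rims proteins and Rab3 tether vesicles at the active zone, complexins hold the complex ready, and synaptotagmins sense the calcium that triggers fusion. At the neuromuscular junction, the synapse of a motor neuron on muscle, the presynaptic machinery is known for its use of Vamp1 and Syt2 beside Vamp2 and Syt1. Many relatives in the same families serve transport between endosomes, Golgi and plasma membrane in every cell (Stx7, Stx12, Stx5a, Vamp3, Vamp8) or granule release in blood cells (Unc13d, Stx11, Stxbp2).

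The values are the deposited TPM, which are per transcript length and sum to 1000000 in every library; they carry no counts, so the depth behind a value is unknown. Smn1 was listed between 8.97 and 23.3 TPM for WT and between 0 and 1.498 TPM for the 12 libraries from Smn-/- mice. The 11 motor neuron markers examined (among them Chat, Isl1, Mnx1 and Prph) were all tested and summed to 6500 to 10874 TPM. The largest part of that sum was the neurofilament gene Nefl (3330 to 6313 TPM). Chat ran from 36.6 to 132.7 TPM, Isl1 from 19.0 to 212.1 TPM and Mnx1 from 12.8 to 42.1 TPM. The 9 interneuron markers summed to 14.7 to 53.2 TPM, of which Slc17a6 had 9.45 to 48.2 TPM and Tlx3 was listed at 0 throughout. Glial markers were far higher. The 10 oligodendrocyte lineage markers summed to 445 TPM in the lowest library (SMA+Pifithrin-alpha) and 5849 TPM in the highest (SMA+MW150). For WT they spanned 688 to 2077 TPM and for SMA 888 to 4260 TPM. The 8 astrocyte markers summed to 747 to 1839 TPM, the largest part being Aldoc (492 to 1398 TPM). Library differences of at least 2 kinds touch the members. The share of TPM in mitochondrially encoded genes was 21.9% for WT 1 and 20.4% for SMA+Pifithrin-alpha 3, and the members' median log2 deviation from their own means was -0.55 and -0.77 there, against -0.15 to 0.30 in the other 13 libraries. Markers of microglia differed between groups as well: their sum ran from 42.3 to 80.4 TPM for WT and from 150.3 to 174.8 TPM for SMA. In tissue cut from sections, fewer cells of a type and less RNA per cell cannot be told apart.

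**Figure D1:**
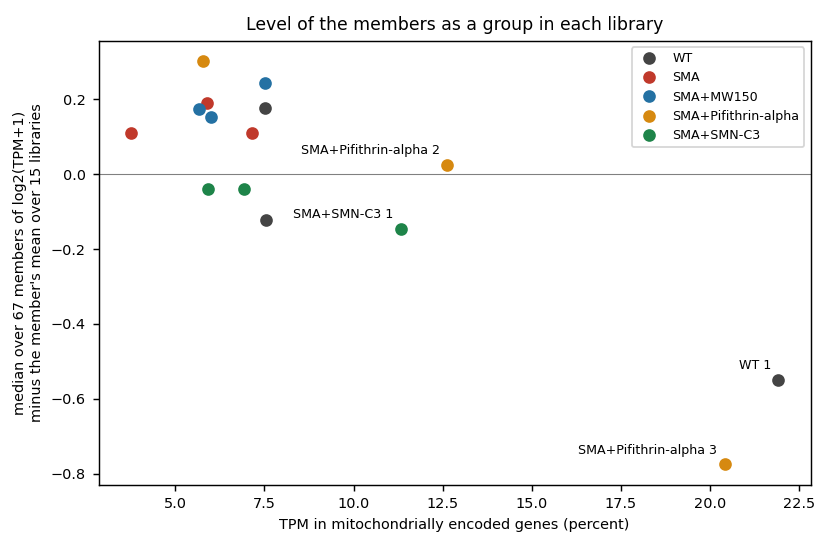
Each point is 1 of 15 libraries, coloured by group; the horizontal axis gives the percentage of TPM in mitochondrially encoded genes and the vertical axis the median over the 67 members of log2(TPM+1) minus each member's mean over the libraries. WT 1 (21.9%) and SMA+Pifithrin-alpha 3 (20.4%) lie lowest, at -0.55 and -0.77.

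In WT motor neurons a few members made up most of the abundance (the plot of WT levels by family). Means of at least 100 TPM were reached by 17 of the 67 members and of at least 10 TPM by 44. The 4 genes that mark the set were all present. Snap25 (chr2:136713453-136782428, plus strand, GRCm38), the plasma membrane SNARE of release, had 1291 ± 285 TPM (SD, n = 3 here and below). Vamp1 (chr6:125215551-125245964, plus strand), a vesicle SNARE, had 303.0 ± 110.3 TPM. Syt1 (chr10:108497650-109010982, minus strand) and Sv2a (chr3:96181151-96195521, plus strand), a calcium sensor and a vesicle glycoprotein, were much lower, at 25.03 ± 4.35 and 20.4 ± 5.74 TPM. Vamp1 overlaps Tapbpl and Cd27 on the other strand, and whether the counting used strand is not given in the sources used here.

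The vesicle side was led by Rab3a (1137 ± 469 TPM), the GTPase that marks release-ready vesicles, by the complexin Cplx1 (729 ± 374 TPM) and by Syp (392.5 ± 179.2 TPM), the vesicle protein synaptophysin. Cplx2, the other complexin member, stood at 32.0 ± 7.51 TPM. Among calcium sensors Syt2 was higher than Syt1 in each WT library, by 3.01 to 6.03 times. Syt11 (359 ± 80.6 TPM), which lacks calcium binding, was the highest synaptotagmin, ahead of Syt3 (114 ± 70.3 TPM). Of the SV2 proteins Sv2c (66.6 ± 12.8 TPM) was higher than Sv2b (32.2 ± 6.57 TPM) and Sv2a, and the synapsins, which tether vesicles to each other, were led by Syn2 (172 ± 38.2 TPM). Summed over protein-coding transcript models only, Syn2 was below Syn1, at 85.9 ± 42.5 against 116.7 ± 52.9 TPM.

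On the target membrane side, Stx1a, a syntaxin of the nerve terminal, had 40.1 ± 19.7 TPM and was below the endosomal Stx7 (157 ± 22.96 TPM) in each WT library. Snap47, a relative of Snap25, reached 450.3 ± 180.5 TPM. The priming and active zone members were lower. Rims2 was at 70.4 ± 33.5 TPM, Rims1 at 23.9 ± 4.27 TPM, Unc13a (Munc13-1) at 10.6 ± 5.02 TPM and Unc13b below 3 TPM in every library. Summed over its transcripts, Rims1 was lower, at 11.96 ± 2.13 TPM.

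**Figure D2:**
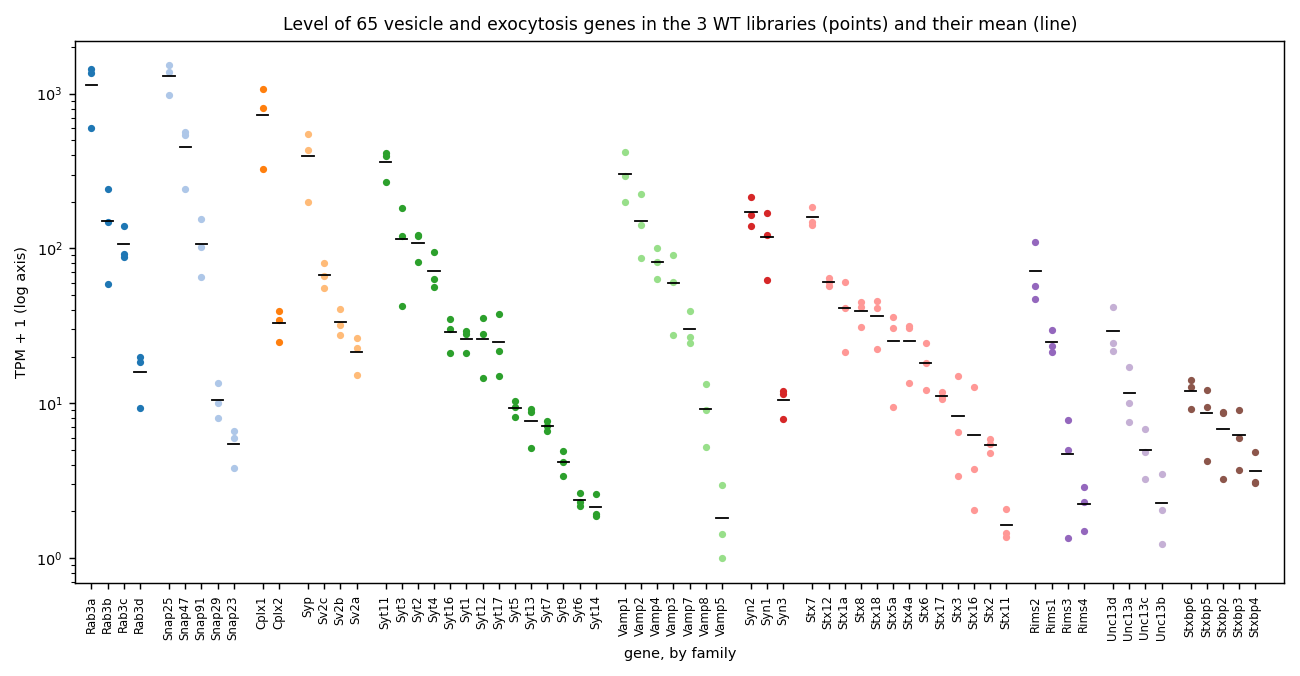
Points are the TPM + 1 of 65 of the 67 members in the 3 WT libraries on a log axis, grouped by family, and black lines are the means. Snap25 (1291 TPM) and Rab3a (1137 TPM) are highest, and members of each large family span more than a factor of 10.

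The first question was whether SMA motor neurons differ from WT in these genes. Relative to WT, the SMA libraries had higher values of Syt5, Vamp2 and Stx11 and lower values of Rims2, but no member passed the test: 0 of 67 were called at an adjusted p under 0.05 by limma, beside 0.363% of all 15425 tested genes. At an unadjusted p under 0.05 there were 5 members (7.46%), beside 13.5% of all genes. The members' median log2 change was 0.27, beside 0.24 over all genes, and 36 of 67 lay above that all-gene median. Scaling the libraries to each other by the median of ratios lowered both medians to 0.04. Without WT 1 and SMA+Pifithrin-alpha 3 the members' median was 0.08, beside 0.12 over all genes.

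Vamp2 (chr11:69088490-69092384, plus strand), the synaptobrevin of central synapses, had 85.3, 140.0 and 224.8 TPM in the WT libraries, against 332.8, 265.7 and 264.5 TPM in the SMA libraries. Every SMA library was above every WT library. The log2 change was 1.04 (SE 0.34), with an adjusted p of 0.254 by limma, and 0.80 relative to the all-gene median. Without WT 1 it was 0.69, and 0.52 once the model held the mitochondrial share. Vamp1, its partner family member, ran 197, 294 and 417 TPM over the WT libraries and 240, 264 and 365 TPM over the SMA libraries, with wide overlap and a log2 change of -0.02 (SE 0.27).

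The ratio of Vamp2 to Vamp1 within a library, singled out after these values were seen and therefore given with no test, ranged from 0.43 to 0.54 in WT, and in SMA from 0.73 to 1.39. For the MW150 libraries it lay between 0.70 and 0.78, for Pifithrin-alpha between 0.47 and 0.80, and for SMN-C3 between 0.57 and 0.72. The WT ratios lay below those of the SMA, SMA+MW150 and SMA+SMN-C3 libraries, and SMA+Pifithrin-alpha 3 fell within the WT range.

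Syt5 (chr7:4539765-4547541, minus strand), a calcium-binding synaptotagmin, showed the widest gap. The WT libraries had 7.10, 8.38 and 9.35 TPM, the SMA libraries 48.4, 20.6 and 19.1 TPM, so the groups did not overlap and SMA 1 stood far above the others. The log2 change was 1.59 (SE 0.48), with an adjusted p of 0.211 by limma, or 1.004 once the model held the mitochondrial share. Stx11, a syntaxin of immune granules, spanned 0.37 to 1.09 TPM among WT libraries and 1.24 to 4.47 TPM among SMA libraries (log2 change 1.10, SE 0.44). Unc13a, the main priming factor of neurons, spanned 6.59 to 16.2 TPM among WT and 18.2 to 21.1 TPM among SMA libraries. Its log2 change was 0.91 (SE 0.43), but 0.18 (SE 0.41) when only its protein-coding transcript models were summed, a setting added after the data were seen.

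Rims2 (chr15:39198261-39684372, plus strand), an active zone scaffold that binds Rab3, ran the other way. The WT libraries had 108.7, 46.3 and 56.3 TPM, the SMA libraries 23.6, 44.9 and 31.7 TPM. The groups did not overlap, though WT 2 and SMA 2 were close, and the log2 change was -1.004 (SE 0.33, adjusted p 0.262 by limma). Without WT 1 it was -0.65. Most of its TPM came from Rims2-211, a model of 1379 bases, and that model was highest in the 2 libraries with the largest mitochondrial share, WT 1 (86.2 TPM) and SMA+Pifithrin-alpha 3 (67.2 TPM). The next lowest changes were those of Snap25 (log2 change -0.51, SE 0.27), Stxbp5, Rims1, Snap91 and Sv2b (-0.44 to -0.34); only Rims1 of these had groups that did not overlap.

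Of the other marker genes, Syt1 ran 26.9, 20.05 and 28.1 TPM over the WT libraries and 34.7, 22.7 and 29.1 TPM over the SMA libraries, with a log2 change of 0.19, SE 0.30, and the groups overlapped. Sv2a ran 14.1, 21.6 and 25.4 TPM over WT and 26.3, 39.9 and 32.3 TPM over SMA. Every SMA value of Sv2a was above every WT value, with a log2 change of 0.68 (SE 0.44), or 0.45 without WT 1. Of the remaining members with large changes, Stx5a, a syntaxin of the Golgi, had 8.45, 29.8 and 34.9 TPM in WT libraries and 38.05, 43.1 and 39.3 TPM in SMA libraries (0.91, SE 0.44), without overlap; without WT 1, its lowest library, the change was 0.31. Rims3, a short Rims protein, had a log2 change of 0.92, SE 0.62 with overlapping groups, and 0.18 without WT 1.

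By family, 11 of 14 synaptotagmins and 11 of 14 syntaxins had a log2 change above 0 between SMA and WT (medians 0.34 and 0.38), and all 3 synapsins did (median 0.22). The VAMPs had a median of 0.56, with 4 of 7 above 0, and the Rab3 genes a median of -0.03, with 2 of 4 above 0. No member of any family was called, and the all-gene median of 0.24 lies near these values for most families.

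Counted over the set, 9 of 67 members (13.4%) had every SMA value above every WT value, beside 14.5% of all genes, and 2 (2.99%), Rims1 and Rims2, had every SMA value below, beside 3.81%. The members are thus near the background in both directions. The 9 were Syt5, Syt9, Syt12, Syt13, Vamp2, Stx5a, Stx11, Sv2a and Unc13a. Glial markers moved in the same comparison: all 10 microglial markers and all 8 astrocyte markers had a log2 change above 0 (medians 0.90 and 0.64), 1 of them, C1qc, was called, and 8 of 10 oligodendrocyte lineage markers were above 0 (median 1.03). Motor neuron markers were split, 6 above and 5 below 0. The part of glial RNA in the members' values was not tested.

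**Figure D3:**
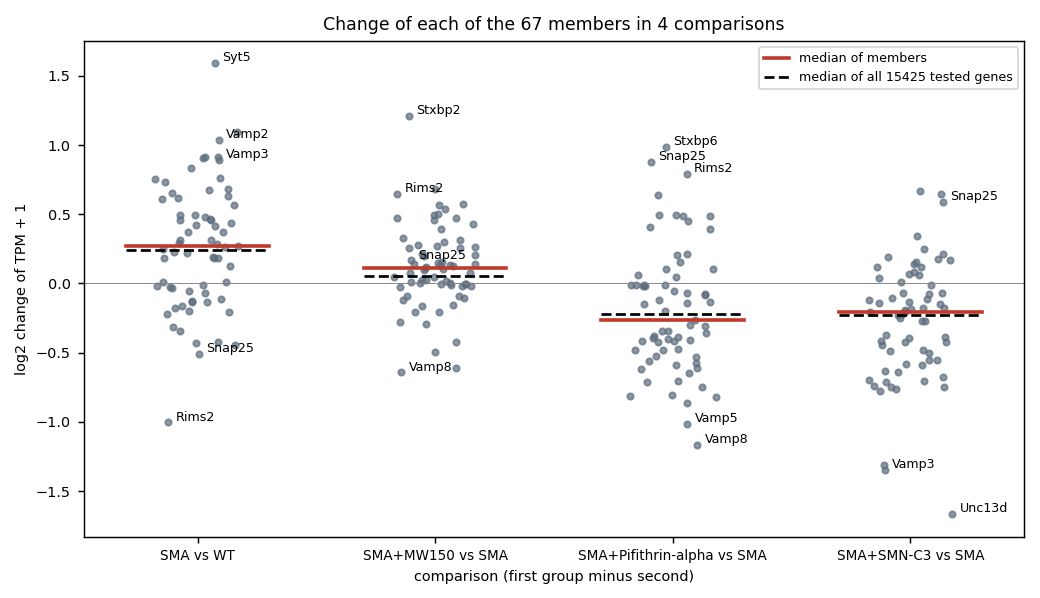
Each point is the log2 change of TPM + 1 of 1 of the 67 members in a comparison named on the horizontal axis, with the members' median in red and that of all 15425 tested genes dashed. The 2 medians lie close in every comparison (0.27 and 0.24 for SMA against WT), and Unc13d lies lowest with SMN-C3.

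The treated groups were each compared with SMA, and these 3 comparisons share the SMA libraries. No member was called in any of them by limma. With MW150 there were 0 of 67 called, beside 0.00648% of all genes, and 1 member (1.49%) at an unadjusted p under 0.05, beside 1.90% of all genes. That member was Stxbp2 (Munc18-2), with 2.84, 12.4 and 6.43 TPM in SMA and 16.3, 17.5 and 13.8 TPM with MW150. Every MW150 value was above every SMA value, and the log2 change was 1.21 (SE 0.51, adjusted p 1 by limma), or 0.75 without SMA 1. All 6 syntaxin-binding protein genes and all 4 Rab3 genes had a log2 change above 0 with MW150 (medians 0.48 and 0.23), beside an all-gene median of 0.06, but none of them was called. The other largest changes were those of Stxbp3, a broadly expressed syntaxin chaperone (0.68, SE 0.47), and Rims2 (0.65, SE 0.33), against Vamp8 (-0.64, SE 0.51), Syt5 (-0.61, SE 0.48) and Stx11 (-0.49, SE 0.44) on the lower side. Rims2 ran 58.01, 45.3 and 50.98 TPM with MW150, above all 3 SMA libraries, and its change was 0.43 without SMA 1. Groups did not overlap for 6 members above (8.96%, beside 7.53% of all genes) and 1 below (1.49%, beside 3.41%); the 1 was Vamp2, at 244.7 to 252.6 TPM with MW150.

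With Pifithrin-alpha, 0 of 67 members were called, beside 0.00648% of all genes, and 5 (7.46%, beside 10.7% of all genes) had an unadjusted p under 0.05: Snap25, Stxbp6, Rims2, Vamp4 and Vamp8. The members' median log2 change was -0.26, beside -0.22 over all genes; without WT 1 and SMA+Pifithrin-alpha 3 it was 0.04, beside 0.0046. Median-of-ratios scaling brought the 2 medians to -0.055 and -0.026. Snap25 had 939.5, 714 and 1054 TPM over the SMA libraries and 1192, 1642 and 2248 TPM over the Pifithrin-alpha libraries. The groups did not overlap, and the log2 change was 0.88 (SE 0.27, adjusted p 0.461 by limma), or 0.65 without SMA+Pifithrin-alpha 3. The Pifithrin-alpha libraries rank in Snap25 as they do in mitochondrial share (5.78%, 12.6% and 20.4%). Stxbp6 (amisyn), an inhibitor of SNARE assembly, had 4.45, 10.5 and 12.95 TPM over SMA and 10.4, 19.7 and 27.6 TPM over Pifithrin-alpha libraries (0.99, SE 0.44), and the groups overlapped. Rims2 followed (0.79, SE 0.33). On the lower side stood Vamp8, an endosomal VAMP (-1.17, SE 0.51), Vamp5 (-1.01, SE 0.50) and Stx1a (-0.86, SE 0.46). Summed over protein-coding transcript models, Vamp8 changed by -1.02 (SE 0.46) and Vamp5 by -0.65 (SE 0.37). Stx1a ran 75.8, 61.3 and 52.7 TPM in SMA and 64.7, 42.8 and 13.9 TPM under Pifithrin-alpha, lowest in the mitochondria-rich library. Of the synaptotagmins 13 of 14 were below 0 (median -0.35). All 10 microglial, all 10 oligodendrocyte lineage and 7 of 8 astrocyte markers were also below 0 with Pifithrin-alpha (medians -1.27, -1.29 and -0.75), and their part in the members' values was not tested. Non-overlap upward was seen in 3 members (4.48%, beside 5.53% of all genes), Snap25, Snap91 and Vamp7, and downward in 0, beside 9.76%.

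With SMN-C3, 0 of 67 members were called, beside 0.0648% of all genes, and 5 (7.46%, beside 8.53% of all genes) had an unadjusted p under 0.05: Unc13d, Vamp3, Syt9, Syt16 and Snap25. Snap25 was higher again, at 1660.0, 1133 and 1283 TPM, above all 3 SMA libraries (log2 change 0.59, SE 0.27, adjusted p 0.572 by limma). Groups did not overlap downward for 12 members (17.9%), beside 18.2% of all genes, and upward for 2 (2.99%), Snap25 and Vamp7, beside 2.52%. Syt9, a calcium sensor of release, had 7.17, 3.96 and 5.18 TPM over SMA and 0.75, 1.30 and 3.06 TPM over SMN-C3 libraries (-1.31, SE 0.42), without overlap. Rab3b, a relative of Rab3a, and Stxbp6 were the other members with the largest changes upward, at 0.64, SE 0.38 and 0.67, SE 0.44. All 4 Unc13 genes had a log2 change below 0 (median -0.74), but these values include models that are not protein coding. Summed over protein-coding models only, Unc13a changed by -0.23 (SE 0.41), and such models averaged 0.53% of Unc13d's TPM. Of the 14 synaptotagmins 13 had a log2 change below 0 (median -0.45), none called, and the all-gene median was -0.23. Scaling by the median of ratios brought that all-gene median to -0.01 and the members' median from -0.21 to 0.04. All 10 microglial and all 10 oligodendrocyte lineage markers were also below 0 with SMN-C3, with medians of -0.89 and -0.83, and their part in the members' values was not tested.

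Against WT, which these 3 comparisons share, no treated group had a member called by limma. The counts were 0 of 67 with MW150, beside 0.143% of all genes, 0 with Pifithrin-alpha, beside 0.117%, and 0 with SMN-C3, beside 0.0194%. At an unadjusted p under 0.05 they were 6 (8.96%, beside 10.2% of all genes), 4 (5.97%, beside 5.78%) and 3 (4.48%, beside 7.31%). Vamp2 had log2 changes from WT of 0.83 for MW150, 0.65 for Pifithrin-alpha and 0.55 for SMN-C3 (SE 0.34 each). Rims2 with SMN-C3 was at 30.4, 25.5 and 26.4 TPM, below all WT values (log2 change -1.23, SE 0.33, adjusted p 0.493 by limma). The F test of limma over the 5 groups called 0 members, beside 0.22% of all genes, with 6 (8.96%, beside 9.46% of all genes) at an unadjusted p under 0.05; Unc13d had the lowest adjusted p, 0.065.

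**Figure D4:**
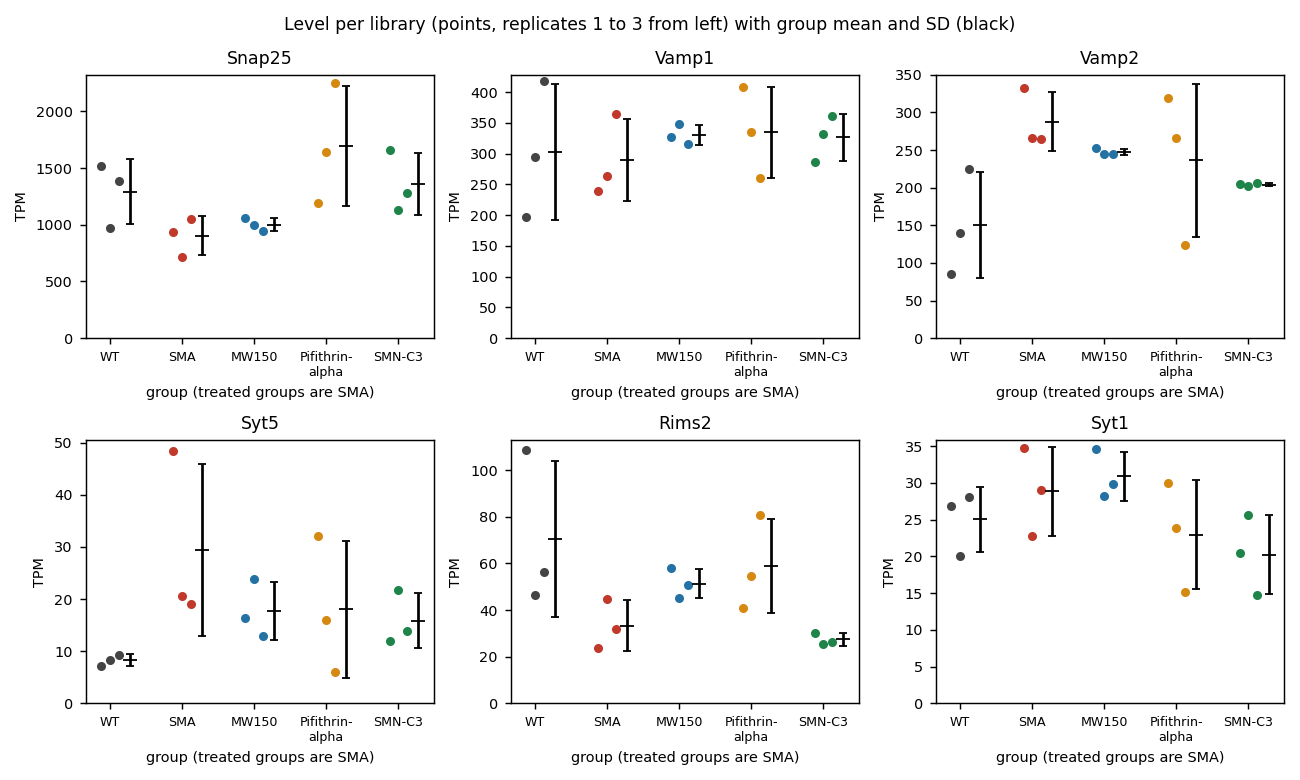
Points are the TPM of single libraries in each group (replicates 1 to 3 from left), and black marks the mean with its SD (n = 3), for Snap25, Vamp1, Vamp2, Syt5, Rims2 and Syt1. Vamp2 lies between 264.5 and 332.8 TPM in SMA and between 85.3 and 224.8 TPM in WT, while Vamp1 overlaps in all groups.

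The lowest of the members' changes with SMN-C3 was that of Unc13d (chr11:116062095-116077961, minus strand), known as the Munc13-4 protein of granule release in blood cells. It had 23.8, 49.7 and 66.8 TPM in the SMA libraries, 11.03, 17.8 and 10.8 TPM in those given SMN-C3, and 20.6, 23.5 and 40.7 TPM in the WT libraries. All 3 SMN-C3 libraries were below every other library of the study. The log2 change from SMA was -1.67 (SE 0.39, adjusted p 0.156 by limma). It passed the threshold without WT 1 and SMA+Pifithrin-alpha 3 (adjusted p 0.028, in a fit that called 1.09% of all genes) and missed it with median-of-ratios scaling (0.418). Vamp3, the endosomal VAMP cellubrevin, followed with 52.5, 114.0 and 157.3 TPM in SMA and 28.1, 50.3 and 38.4 TPM with SMN-C3 (log2 change -1.35, SE 0.42, adjusted p 0.354 by limma).

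Most TPM of these 2 genes was assigned to models without a coding sequence. Of Unc13d's TPM 99.5% was assigned on average to Unc13d-205, annotated as a processed transcript (chr11:116075397-116077961), and its protein-coding models were listed at 0 to 0.78 TPM. Of Vamp3's TPM 80.1% was assigned to Vamp3-203, a retained-intron model (chr4:151050409-151057946). The gene Camta1 overlaps Vamp3 on the same strand, and its part in these values was not tested. Both Unc13d-205 and Vamp3-203 end in a stretch of intron that resembles the B2 family of short interspersed repeats, judged from its letters, since no repeat annotation was used. The 2 stretches are shown because they are nearly the same sequence. They lie at chr11:116075414-116075607 (194 bases) and chr4:151050411-151050599 (189 bases), both on the minus strand of GRCm38. Neither overlaps an exon of the 1 coding model checked for its gene. Capitals mark the longest run common to both, 40 bases.
Unc13d-205: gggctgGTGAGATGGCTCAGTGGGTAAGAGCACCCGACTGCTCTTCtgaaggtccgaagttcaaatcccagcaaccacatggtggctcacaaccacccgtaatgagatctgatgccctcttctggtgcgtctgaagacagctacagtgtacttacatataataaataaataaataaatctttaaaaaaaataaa
Vamp3-203: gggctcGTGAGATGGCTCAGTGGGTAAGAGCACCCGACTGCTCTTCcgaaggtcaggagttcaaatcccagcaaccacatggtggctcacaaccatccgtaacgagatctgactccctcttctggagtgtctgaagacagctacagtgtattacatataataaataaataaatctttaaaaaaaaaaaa

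Aligned, the 2 stretches had 178 identical bases and 11 mismatches (94.2% identity). Transcripts were compared with these stretches by sequences of 31 bases, the length kallisto matches by default. At least 10 such sequences, overlapping ones counted apart, were shared by 357 transcripts of the annotation, of which 354 belonged to other genes. A transcript may thus share only a short part of the stretch. Unc13d-205 and Vamp3-203 themselves held 164 and 159 of these sequences. Reads inside such a stretch fit many transcripts, and kallisto divides them by an estimate. The transcripts of other genes that shared part of the stretch summed to 1945 to 2504 TPM in the SMN-C3 libraries, 3021 to 5154 in SMA, 2596 to 3893 in WT, 3881 to 5509 with MW150 and 3511 to 6832 with Pifithrin-alpha. Across the 15 libraries this sum correlated with Unc13d-205 at Pearson's r = 0.98 and with Vamp3-203 at 0.93, a description without a test, since the transcripts share reads and a library's scale. For Vamp3-201, the protein-coding model, r was 0.47.

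The third member was Stxbp2, which shared only part of the stretch. Its coding model Stxbp2-207 held 16 of the short sequences compared above, overlapping ones counted apart. That model was listed at 2.54 to 5.61 TPM in SMA, 4.85 to 5.90 with MW150 and 0.40 to 2.06 with SMN-C3. The coding model Vamp3-201 had 16.4, 26.5 and 17.7 TPM over the SMA libraries and 9.18, 10.5 and 11.1 TPM over the SMN-C3 libraries, and these did not overlap. Summed over protein-coding models only, Vamp3's log2 change with SMN-C3 was -0.88 (SE 0.42, adjusted p 0.677 by limma) in place of -1.35. Among 255 tested transcripts of other genes that shared part of the stretch, a list formed after the data were seen, the median log2 change with SMN-C3 was -0.61, beside -0.22 over all tested transcripts. Of these 255, 38.8% had every SMN-C3 value below every SMA value, beside 13.1% of all transcripts. In the other comparisons with SMA their median was 0.25 with MW150, beside 0.10 over all transcripts, and 0.20 with Pifithrin-alpha, beside -0.16. Between SMA and WT it was 0.26, beside 0.22. Models of retained introns and processed transcripts together took 6.43% to 6.73% of TPM with SMN-C3 and 7.14% to 8.95% in SMA.

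**Figure D5:**
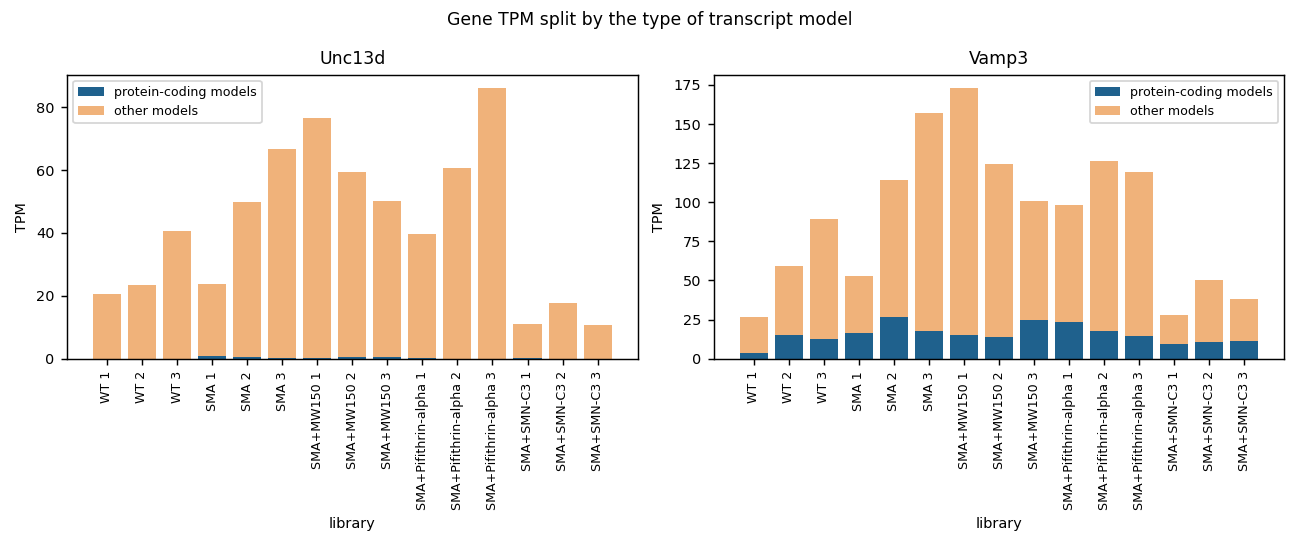
Bars give the TPM of Unc13d and Vamp3 in each of the 15 libraries, with protein-coding models in blue and all other models in orange. Almost none of Unc13d is blue (0 to 0.78 TPM), and the 3 SMN-C3 libraries are low in both genes, at 10.8 to 17.8 and 28.1 to 50.3 TPM.

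Such models also took a large part of the TPM of some other members. Protein-coding models averaged 41.6% of TPM for Syt9, 47.6% for Unc13a, 51.5% for Syn2, 53.7% for Stxbp2 and 59.4% for Stx5a. Transcripts of 66 members were found in GENCODE M21 (all but Vamp7), and the median share of TPM in protein-coding models was 97.2%. It was at least 90% for 47 members and below 50% for 7. The leading model was not protein coding for 8 members, Unc13d, Syt16, Syn3, Vamp3, Stx8, Unc13a, Syt6 and Snap23. No single member transcript was called by limma in the comparisons of SMA with WT (0 of 209, beside 0.221% of all 41719 transcripts tested) or of MW150 (0, beside 0.0024%), Pifithrin-alpha (0, beside 0.00479%) or SMN-C3 (0, beside 0.012%) with SMA. At an unadjusted p under 0.05 there were 24 (11.5%, beside 12.2% of all transcripts), 14 (6.70%, beside 4.52%), 10 (4.78%, beside 8.33%) and 12 (5.74%, beside 6.88%).

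Snap25 has a pair of alternative exons of equal length, of which a messenger RNA contains 1, and the switch between them during brain development is well known. They are shown because the 2 models differ in coding sequence only there. Snap25-201 holds the downstream exon at chr2:136770057-136770174 and Snap25-202 the upstream exon at chr2:136769743-136769860, both on the plus strand of GRCm38 and 118 bases long. Capitals mark the 31 bases that differ.
Snap25-201: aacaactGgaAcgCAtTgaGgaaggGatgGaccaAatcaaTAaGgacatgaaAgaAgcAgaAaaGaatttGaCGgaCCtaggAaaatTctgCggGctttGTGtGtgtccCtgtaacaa
Snap25-202: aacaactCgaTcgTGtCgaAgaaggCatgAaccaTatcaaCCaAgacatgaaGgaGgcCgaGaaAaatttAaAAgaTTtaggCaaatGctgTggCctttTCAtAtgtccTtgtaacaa

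Snap25-201 took 99.5% to 100.0% of Snap25's TPM over the 15 libraries. Its mean share was 99.7% in both SMA and WT, and the difference of -0.03 percentage points had an exact two-sided permutation p of 0.8 (3 against 3 cannot go below 0.1). Snap25-201 also runs 1077 bases further at its 3′ end than Snap25-202, and reads from there can count for Snap25-201 alone, so the share does not measure use of the exon pair by itself. Snap25-202 was listed at 0 to 2.81 TPM.

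Another model pair separated libraries rather than groups. Snap91 encodes the clathrin adaptor AP180, which acts in vesicle retrieval. Its model Snap91-204, which lacks 4 coding exons (189 bases) of Snap91-202, reached 108.5 TPM for WT 1 and 66.2 TPM for SMA+Pifithrin-alpha 3, with 15.7 TPM for SMA+Pifithrin-alpha 2 and 1.08 to 5.83 TPM for the other 12 libraries. Snap91-202 was at 35.4 and 37.3 TPM in the first 2 of these and at 54.1 to 89.7 TPM elsewhere. The first 3 are the libraries with the largest mitochondrial shares.

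Over the 15 libraries, 52 of 67 members correlated negatively with the mitochondrial share (36 below -0.5), down to -0.95 for Syp, Stx4a and Snap47. Snap25, Rims2, Snap91 and Vamp4 ran the other way, at 0.70 to 0.75. These are descriptions over libraries that share a fixed TPM total. The genes most like Snap25 over the 15 libraries, by Pearson's r of log2(TPM+1), were Zfp944 (0.97), Calm2 (0.96) and Ube2d3 (0.96), and among members Vamp4 (0.78), Sv2b (0.70) and Vamp7 (0.68). With the mitochondrial share as a term in the model, the members' median log2 change between SMA and WT was -0.01 and Snap25 kept a change of 0.56 with Pifithrin-alpha (adjusted p 0.843 by limma).

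Other genes of the vesicle cycle, outside the families named above, were no different in count. Of 11 SNARE disassembly and other SNARE genes (Nsf, Napa and relatives) 0 were called between SMA and WT, with a median log2 change of 0.36. The corresponding values were 0 of 19 tested and -0.13 for active zone and priming genes such as Bsn, Pclo and Erc1, 0 of 13 and 0.55 for vesicle proteins and transporters such as Slc18a3 and the synucleins, and 0 of 19 and 0.24 for endocytosis genes such as Dnm1 and Synj1. No gene of these lists was called in the 3 comparisons of treated groups with SMA either. The vesicle proteins and transporters together reached 2124 to 4775 TPM per WT library and 4396 to 6279 TPM per SMA library. Most of these sums was the synuclein gene Sncg. It had 1540, 3721 and 2830 TPM over the WT libraries and 4775, 3173 and 3382 TPM over the SMA libraries, and the groups overlapped. Its lowest WT value was that of WT 1, a mitochondria-rich library.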

How the data were processed

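RNA was sequenced from 15 poly(A) libraries, 3 in each of 5 groups, with paired ends of 100 bases per the labels' protocols. The authors deposited TPM values per gene and per transcript, made with kallisto 0.44.0 on GRCm38.p6 (mm10), per the submitters' processing notes, which also list DESeq2; the transcript annotation is not given in the sources used here. TPM holds no counts, so depth is unknown and no count model was used. Of 118489 transcripts, 98.5% matched GENCODE M21 by identifier, and coordinates and model types come from it. For 94.5% of the members' values the gene TPM equalled the sum of matched transcripts within 1%. For Vamp5, Vamp8 and Rims1 the gene value exceeded that sum. As WT means it was 8.20 against 4.10 TPM for Vamp8 and 23.9 against 11.96 TPM for Rims1. The 15425 genes that reached 1 TPM in 3 or more libraries were analysed as log2(TPM+1), a scale that understates fold changes of low genes. All libraries entered 1 fit of group means in limma 3.58.1 in R 4.3.3 (trend, two-sided), and Benjamini-Hochberg adjusted p under 0.05 over all genes was called. The 67 members and the lists were chosen with earlier results of these data known. Named genes were the 4 markers, called members, the highest of each family, the 6 largest changes each way between SMA and WT, the 3 largest each way per treatment, 3 genes on either side of the minimum and those most like Snap25; others named were chosen after their values were seen. Members counted among the 67 but not named in the text or the plot of WT levels are not reported here one by one. Of the vesicle protein list, Sv2b was left out as a member. p-values measure the spread between these libraries. Same-numbered libraries' deviations from their group means correlated at -0.34 to 0.29; every pair was over 0.1 only between SMN-C3 and WT (0.10 to 0.29), a pairing read from the data and stated by no label. Figures were made with matplotlib 3.10.9 in Python 3.11.15.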

Additional observations from a re-analysis of the deposited data

How the results depend on the processing

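Alternatives were a pseudocount of 0.1, no filter, a mean of at least 5 TPM, median-of-ratios scaling, the mitochondrial share as a term, array weights, a fit of only the groups compared, a replicate block, and leaving out each library or both libraries richest in mitochondrial TPM; sums over protein-coding models and gene-by-gene array weights were added after the data were seen. The count of called members was 0 in all 7 comparisons under all of these except the following. Array weights did not converge and gave SMA+Pifithrin-alpha 2 a weight of 276; with them 18 members (26.9%) were called with Pifithrin-alpha against SMA, beside 33.4% of all genes, 18 against WT, beside 24.4%, 2 (2.99%) with SMN-C3 against SMA (Unc13d, Vamp3), beside 2.15%, and 1 (1.49%) with MW150 against WT, beside 1.61%. Gene-by-gene weights, which reached 5.71 for that library, called 4 (5.97%) with Pifithrin-alpha against SMA (Rims2, Snap25, Vamp4, Vamp5), beside 10.2% of all genes, 1 against WT (Vamp4), beside 3.95%, and 2 with SMN-C3 against SMA, beside 1.498%. Without WT 1 and SMA+Pifithrin-alpha 3, the libraries richest in mitochondrial TPM, 1 member was called with SMN-C3 against SMA (Unc13d), beside 1.09% of all genes, and when that share entered the model the F test called 1 (Unc13d, adjusted p 0.023 by limma), beside 0.434%. The cause of these differences was not tested.

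With the replicate block, 0 members were called in any comparison. Each replicate number occurs in every group, so the block cannot move a log2 change, and the equal medians are no check. Over all genes the block called 48 between SMA and WT in place of 56. Median-of-ratios scaling moved the members' median log2 change against SMA to 0.032 for MW150, -0.055 for Pifithrin-alpha and 0.040 for SMN-C3. The mitochondrial share as a term moved it to -0.015 between SMA and WT and 0.18 with Pifithrin-alpha. Leaving out 1 library at a time gave medians of 0.08 to 0.39 between SMA and WT (lowest without WT 1), 0.042 to 0.13 with MW150, -0.47 to 0.04 with Pifithrin-alpha (highest without SMA+Pifithrin-alpha 3) and -0.28 to -0.18 with SMN-C3, and differences in the Snap25-201 share of -0.081 to 0.0086 percentage points. Sign changes between SMA and WT were examined for the members named by rule and not for the rest. They were found for Unc13b with a pseudocount of 0.1 (0.080), and with median-of-ratios scaling Syt1 (-0.051), Syn2 (-0.026) and Syt14 (-0.0025). With the mitochondrial share in the model they were Rab3a (-0.17), Syp (-0.25), Syt11 (-0.14), Syn2 (-0.11), Stxbp3 (-0.0058), Stxbp6 (0.15) and Stx1a (-0.020). With array weights they were Stxbp3 (-0.082) and Stxbp6 (0.020), gene by gene Stxbp3 (-0.0096), and without the mitochondria-rich pair Rab3a (-0.041) and Stxbp3 (-0.085). Leaving out 1 library gave ranges across 0 for Vamp1 (-0.30 to 0.24), Rab3a (-0.041 to 0.60), Rab3b (-0.63 to 0.39), Stx7 (-0.25 to 0.10), Stxbp2 (-0.26 to 0.68), Stxbp3 (-0.085 to 0.56), Stxbp6 (-0.58 to 0.094) and Unc13b (-0.42 to 0.33). TPM holds no depth, so low members such as Unc13b and Stx11 have an unknown counting error.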
